A study of Mus musculus with 4 samples.

Results

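The 10 genes described here encode the main ligands and receptors of transforming growth factor β (TGFβ) and bone morphogenetic protein (BMP) signaling. They were chosen by name from the 56748 genes of the deposited table, as the ligands *Tgfb1*, *Tgfb2*, *Tgfb3*, *Bmp4* and *Bmp7* and the receptors *Tgfbr1*, *Tgfbr2*, *Tgfbr3*, *Bmpr1a* and *Acvr1*. All 10 were among the 15997 genes with enough signal to test. RNA was sequenced from pooled lenses of mice aged 10 to 12 days, with 2 libraries from *Fsp1-cre;Pdgfrb*+/D849V mice (mutant) and 2 from control mice, all on an FVB/N background. In the mutants, Cre under the *Fsp1* (*S100a4*) promoter, which is not specific to the lens, activates a D849V allele of the PDGF receptor β gene that is expressed from its own promoter. The sample labels give *Fsp1-cre;Pdgfrb*+/+ for both control libraries, while the study's methods describe the control pools as mixed, including mice without cre and mice carrying *Pdgfrb* D849V without cre. The study's captions give a group size for the sequencing without saying whether it counts mice or lenses, and the number in each library is not given in the sources used here, so the p-values below measure the spread between pooled libraries.

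TGFβ ligands are secreted in a latent form, and once released they bind a pair of type II and type I receptors (TGFBR2 and TGFBR1), which phosphorylate SMAD2 and SMAD3. TGFBR3, also called betaglycan, is a co-receptor that presents ligand. BMP ligands act through type I receptors such as BMPR1A and ACVR1, which phosphorylate SMAD1, SMAD5 and SMAD9, and the *Id* genes are direct targets of that branch. In the lens, BMP4 and BMP7 are needed for formation of the organ in the embryo, and excess active TGFβ drives lens epithelial cells toward a myofibroblast-like state with deposition of matrix.

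The libraries held between 18561682 and 18878768 reads on genes, of which crystallin genes took between 58.6% and 62.9%, so genes at low levels rest on few reads. Levels are given in FPKM, fragments scaled to gene length and to the size of the library, which allows genes of different length to be compared. The markers of lens epithelium summed to between 138 and 162 FPKM and those of lens fibres to between 32600 and 45400 FPKM. The entry of the fibre gene *Lim2* (ENSMUSG00000118560) had 0 reads in every library, while the fibre gene *Mip* averaged 3790 FPKM. Whether that 0 comes from the annotation or counting of *Lim2* was not tested. *Pdgfrb* itself stood at 2.36 and 2.16 FPKM in mutants 1 and 2 and at 2.25 and 1.79 FPKM in controls 1 and 2, a log2 fold change of 0.16 ± 0.16 (SE, adjusted p = 0.837, limma). The D849V change is a point mutation, so these levels do not check which allele a library carries. *Xist*, which is transcribed from the inactive X chromosome of females, was at 13.1 FPKM in mutant 2 and 15.6 FPKM in control 1 but at 7.62 FPKM in mutant 1 and 5.56 FPKM in control 2. *Eif2s3y*, a Y-linked gene, had its higher levels in the other pair, at 7.10 and 7.13 FPKM in mutant 1 and control 2 against 4.82 and 3.02 FPKM in mutant 2 and control 1, so the pools differed in sex composition within each group.

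Over the 4 libraries the mean levels of the 10 genes spanned from 6.30 FPKM for *Tgfb2* to 0.112 FPKM for *Tgfbr2*. *Tgfb2* was the most abundant, above 85.1% of the genes tested, and was followed by *Bmpr1a* (4.91 FPKM) and *Bmp7* (4.72 FPKM), whose ranges over the libraries overlapped. A middle group held *Tgfb1* (2.29 FPKM), *Tgfb3* (1.79 FPKM) and *Tgfbr1* (1.72 FPKM), and neighbors in this order again overlapped. *Bmp4* (1.0 FPKM) and *Acvr1* (0.653 FPKM) came next with overlapping ranges. *Tgfbr3* (0.240 FPKM) lay below them in every library, and *Tgfbr2* lay below *Tgfbr3* in every library, above only 2.25% of the genes tested.

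**Figure D1:**
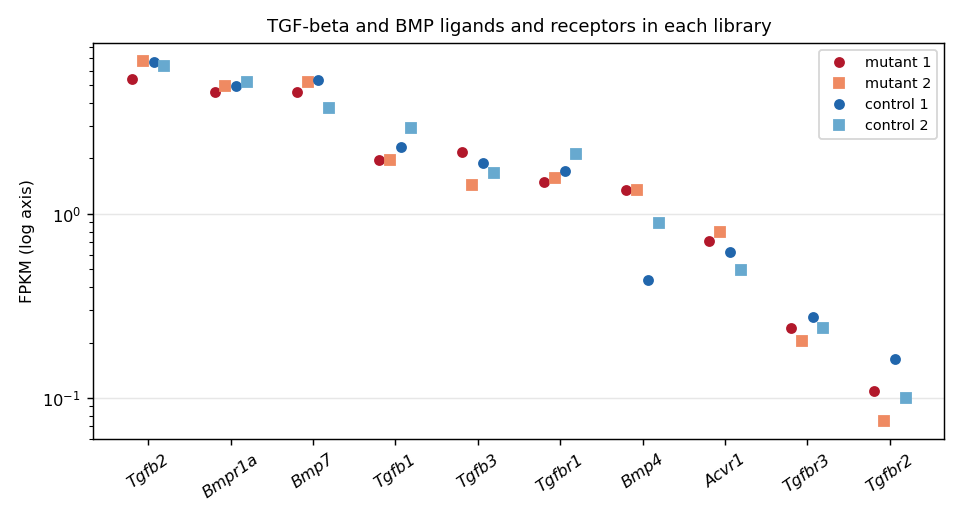
FPKM of the 10 ligand and receptor genes on a log axis, with 1 point per library and genes ordered by mean level. The points of *Tgfb2* lie between 5.41 and 6.78 FPKM and those of *Tgfbr2* between 0.0749 and 0.163 FPKM, and the wide gap between the mutant and control points of *Bmp4* is set mainly by control 1.

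Between genotypes, 0 of the 10 genes passed an adjusted p of 0.05 by limma on log2(FPKM + 0.1) with Benjamini-Hochberg adjustment over all genes tested, and the smallest adjusted p was 0.763. Over all genes 0.0375% passed that threshold. At an unadjusted p under 0.05 the count was 1 of 10 (*Bmp4*, higher in mutants), against 6.31% of all genes, 3.39% of them higher and 2.92% lower in mutants. Limma's voom on the recovered reads gave 2 of 10 unadjusted (*Bmp4* and *Tgfb1*) and 0 of 10 adjusted, against 7.38% and 0.0875% of all genes. Levels did not overlap between the groups for 6 of the 10 genes, with 2 higher and 4 lower in mutants. Over all genes 36.6% did not overlap, 18.2% with mutants higher and 18.3% with mutants lower. The median log2 fold change of the 10 genes was -0.096 and that of all genes 0.004, while the median size of the change regardless of sign was 0.207 and 0.185. In whole lenses, a lower level can come from fewer cells of a type or from less RNA per cell, and these cannot be told apart.

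**Figure D2:**
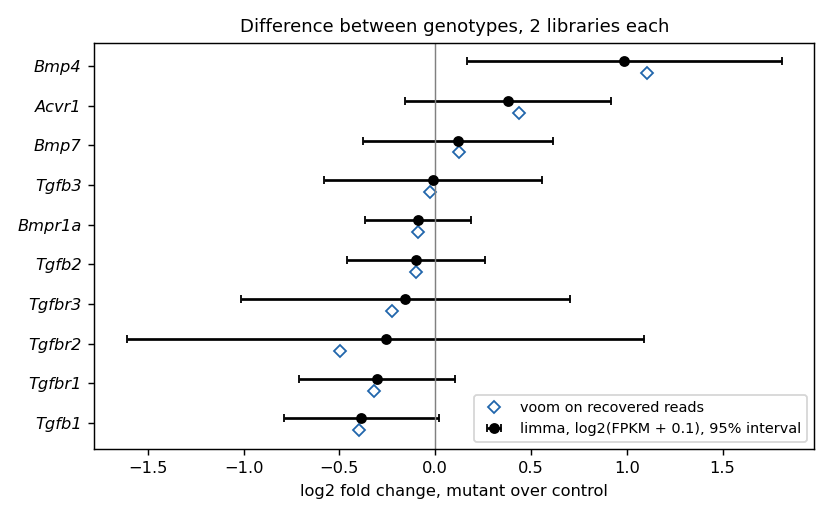
Log2 fold change, mutant over control, of each ligand and receptor gene. Filled circles with bars are limma estimates on log2(FPKM + 0.1) with 95% intervals, open diamonds are voom estimates on recovered reads, and only the interval of *Bmp4* (0.16 to 1.81) leaves 0 out.

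Among the TGFβ ligands, *Tgfb2* (ENSMUSG00000039239, mm39 chr1:186354989-186438186, minus strand) is the form that predominated in these lenses. It measured 5.41 FPKM in mutant 1 and 6.78 FPKM in mutant 2, and 6.65 FPKM in control 1 and 6.36 FPKM in control 2. Mutant 1 was the lowest library and mutant 2 the highest, so the groups overlapped. The means were 6.09 ± 0.974 FPKM in mutants and 6.51 ± 0.206 FPKM in controls (SD, n = 2 each), and the log2 fold change was -0.10 ± 0.14 (SE, adjusted p = 0.888, limma). Without mutant 1 the estimate was 0.06.

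*Tgfb1* (ENSMUSG00000002603, mm39 chr7:25386427-25404502, plus strand) encodes the ligand most often linked to fibrosis. Its levels were 1.97 and 1.96 FPKM in mutants 1 and 2 and 2.31 and 2.92 FPKM in controls 1 and 2, from 177, 193, 226 and 271 reads. Both mutant libraries lay below both control libraries, and the mutant libraries differed from each other by less than the controls did. The log2 fold change was -0.39 ± 0.16 with a 95% interval from -0.79 to 0.02 (adjusted p = 0.805, limma). By voom it was -0.40 (adjusted p = 0.606), with an unadjusted p under 0.05. Leaving out 1 library at a time gave values between -0.548 (without control 1) and -0.222 (without control 2).

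*Tgfb3* (ENSMUSG00000021253, mm39 chr12:86103519-86125815, minus strand) stood at 2.16 and 1.43 FPKM in the mutants and 1.89 and 1.67 FPKM in the controls. The mutant libraries were the highest and the lowest of the 4, and the log2 fold change of -0.01 ± 0.22 (adjusted p = 0.997, limma) turned to 0.268 without mutant 2 and to 0.074 without control 1. *Ttll5*, on the opposite strand, overlaps *Tgfb3* over 5149 bp of mm39, but in the GRCm38 annotation their exons share 0 bases.

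Summed, the 3 TGFβ ligands reached 9.53 and 10.2 FPKM in the mutants and 10.8 and 10.9 FPKM in the controls. The sum was lower in both mutant libraries, at 9.85 ± 0.454 against 10.9 ± 0.0727 FPKM (SD, n = 2 each), and no test was run on it. *Tgfb2* made up between 56.7% and 66.7% of the sum, with both of these extremes in mutant libraries. *Tgfb1* made up 20.7% and 19.2% in the mutants and 21.3% and 26.6% in the controls. The share of *Tgfb3* ranged from 14.1% in mutant 2 to 22.6% in mutant 1.

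**Figure D3:**
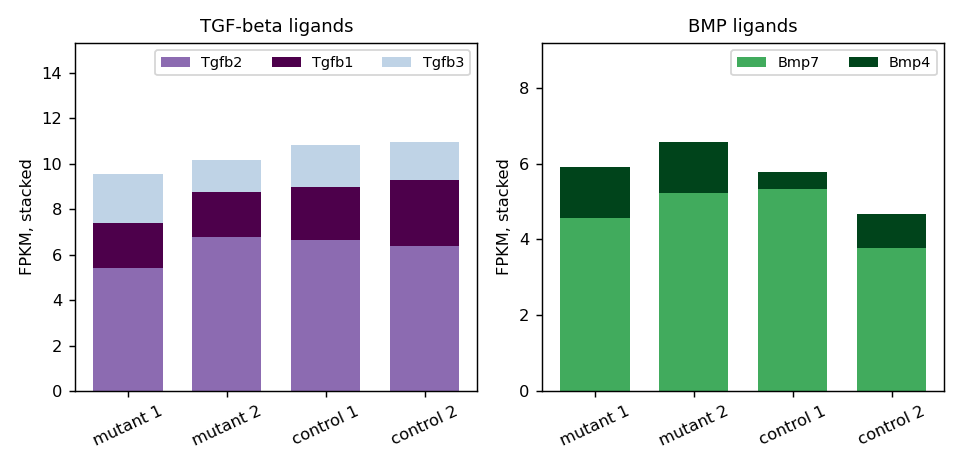
Stacked FPKM of the TGFβ ligands (left) and the BMP ligands (right) in each library. *Tgfb2* and *Bmp7* form the larger part of their stacks in every library, the TGFβ stacks run from 9.53 to 10.9 FPKM and the BMP stacks from 4.66 to 6.56 FPKM.

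*Bmp4* (ENSMUSG00000021835, mm39 chr14:46620977-46628126, minus strand) showed the largest difference of the 10 genes. It measured 1.35 FPKM in mutant 1 and 1.34 FPKM in mutant 2, from 54 and 59 reads, and 0.435 FPKM in control 1 and 0.893 FPKM in control 2, from 19 and 37 reads. Both mutants lay above both controls, the mutants were nearly equal, and control 1 was far below control 2. The means were 1.34 ± 0.00487 and 0.664 ± 0.324 FPKM (SD, n = 2 each). The log2 fold change was 0.99 ± 0.32 with a 95% interval from 0.16 to 1.81 (adjusted p = 0.763, limma), and 1.11 by voom (adjusted p = 0.425). Control 1 carried much of this, since without it the estimate was 0.54, and without control 2 it was 1.433. The unadjusted p stayed under 0.05 without control 2 but not without mutant 1, mutant 2 or control 1, although the estimates without a mutant library were 0.98 and 0.99. With a pseudocount of 1 the estimate was 0.508. The counting error alone gave exact Poisson 95% intervals of 1.02 to 1.73 FPKM for mutant 2 and 0.629 to 1.23 FPKM for control 2, which overlap, whereas that of control 1 (0.262 to 0.679 FPKM) lay below both mutant intervals.

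The long noncoding RNA gene *Gm15222* (ENSMUSG00000086746, mm39 chr14:46624956-46626739, plus strand) lies within *Bmp4* on the opposite strand over its whole 1784 bp, and was looked at after the values of *Bmp4* were seen. In the GRCm38 annotation its exons share 0 bases with those of *Bmp4*, so that it lies in *Bmp4* intron there. It had 10 and 18 reads in mutants 1 and 2 and 3 and 1 reads in controls 1 and 2. Both mutants were above both controls, with a log2 fold change of 1.70 ± 0.46 (adjusted p = 0.689, limma). *Gm15222* averaged 0.0584 FPKM in controls, below the mean of 0.1 FPKM needed for testing. At that control level it could be tested only with higher mutants (0.415 FPKM). Whether reads were counted by strand is not given in the sources used here, so reads of *Gm15222* and unspliced reads of *Bmp4* cannot be told apart. The promoters of the pair are printed because *Bmp4* was the 1 gene of the 10 with an unadjusted p under 0.05 and *Gm15222* differed in the same direction. The sequences are from RefSeq on GRCm38.p6, run 5′ to 3′ on each gene's strand from 250 bases before the start to 50 after it, and lie at chr14:46390620-46390919 (minus strand) and chr14:46387228-46387527 (plus strand). Capitals mark CAGAC, a SMAD binding motif, on either strand.

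Bmp4: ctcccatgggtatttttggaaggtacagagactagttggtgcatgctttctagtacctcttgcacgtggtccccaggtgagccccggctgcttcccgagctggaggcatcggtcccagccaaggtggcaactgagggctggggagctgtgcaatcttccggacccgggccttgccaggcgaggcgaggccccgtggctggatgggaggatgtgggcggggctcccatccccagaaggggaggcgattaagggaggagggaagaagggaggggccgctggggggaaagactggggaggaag
Gm15222: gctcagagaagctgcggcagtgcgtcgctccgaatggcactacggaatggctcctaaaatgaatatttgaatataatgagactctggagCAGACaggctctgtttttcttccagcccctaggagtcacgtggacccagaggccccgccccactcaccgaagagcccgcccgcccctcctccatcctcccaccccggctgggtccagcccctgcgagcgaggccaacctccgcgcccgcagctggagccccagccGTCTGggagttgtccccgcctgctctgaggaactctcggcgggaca

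The *Bmp4* window was 64.0% GC and held 0 copies of CAGAC, and the *Gm15222* window was 63.7% GC and held 2. Of 32851 promoter windows of this length 49.6% held CAGAC on at least 1 strand, and the median GC content was 52.7%. GGCGCC, a motif bound by SMAD1 and SMAD5, had 0 matches in both windows and occurred in 11.9% of all windows. Of the 10 genes, 7 had an entry in the promoter table, with 8 windows in all, of which 3 held CAGAC and 2 held GGCGCC. A match is only a description of the letters in the window.

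The summed level of the macrophage markers was higher in mutants, as was *Bmp4*. The 8 markers summed to 1.83 and 1.67 FPKM in the mutants and 0.678 and 0.487 FPKM in the controls, from 58, 62, 24 and 23 reads. The complement genes *C1qa*, *C1qb* and *C1qc* were the 3 of 8 with enough signal to test. All 3 were higher in mutants at an unadjusted p under 0.05, against 3.39% of all genes, with adjusted p from 0.736 to 0.787 (limma). By voom 1 of the 3 had an unadjusted p under 0.05, against 7.38% of all genes. *C1qb* and *C1qc* averaged 0.0722 and 0.0266 FPKM in controls, below the mean of 0.1 FPKM needed for testing. At such control levels these genes could be tested only with higher mutants (0.342 and 0.299 FPKM). *C1qa* had 19 and 13 reads in the mutants and 9 and 5 in the controls. The defining leukocyte gene *Ptprc* had 2, 1, 2 and 0 reads in the 4 libraries. Of the other untested markers, *Csf1r* and *Cx3cr1* had both mutants above both controls, while *Mrc1* and *Lyve1* overlapped between the groups. The part of macrophages in the *Bmp4* difference was not tested. The summed level of the pericyte markers was lower in mutants, as were *Tgfb1* and *Tgfbr1*, but most of that sum was *Rgs5*. The 5 markers summed to 4.78 and 3.99 FPKM in the mutants and 6.02 and 5.80 FPKM in the controls. Of these, 4 were tested, 2 with the lower and 2 with the higher estimate in mutants. *Kcnj8* and *Abcc9* had the higher estimates, with log2 fold changes of 0.364 and 0.214 (limma). *Rgs5*, the most abundant, was at 3.43 and 2.47 FPKM in the mutants and 4.60 and 4.30 FPKM in the controls, a log2 fold change of -0.59 ± 0.18 (adjusted p = 0.736, limma) with an unadjusted p under 0.05. The part of pericytes in the lower estimates of *Tgfb1*, *Tgfbr1*, *Inhbb*, *Smad9* or *Id4* was not tested.

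*Bmp7* (ENSMUSG00000008999, mm39 chr2:172709805-172782114, minus strand) exceeded *Bmp4* in every library. Its levels were 4.56 and 5.22 FPKM in the mutants and 5.34 and 3.77 FPKM in the controls. The control libraries were the highest and the lowest of the 4, the means were 4.89 ± 0.466 and 4.55 ± 1.11 FPKM (SD, n = 2 each), and the log2 fold change was 0.12 ± 0.19 (adjusted p = 0.907, limma). Without control 2 it was -0.126. The 2 libraries with more *Bmp7*, mutant 2 and control 1, were also the 2 with more *Xist*, and they had 196 and 81 reads on retina markers against 15 and 20 in the others. *Tgfb2* had its 2 higher levels in the same libraries, and the part of sex composition or retina in either gene was not tested. *Bmp4* made up 22.8% and 20.4% of the sum of *Bmp4* and *Bmp7* in the mutants and 7.53% and 19.2% in the controls, so that 3 libraries were close together and control 1 stood apart.

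The receptors showed smaller differences than *Bmp4*, and 0 of 5 had an unadjusted p under 0.05 by limma or by voom. *Tgfbr1* (ENSMUSG00000007613, mm39 chr4:47353222-47414931, plus strand), the type I receptor for TGFβ, measured 1.49 and 1.56 FPKM in the mutants and 1.72 and 2.12 FPKM in the controls. Both mutants were below both controls, at 1.52 ± 0.0437 against 1.92 ± 0.284 FPKM (SD, n = 2 each). The log2 fold change was -0.30 ± 0.16 with an interval from -0.71 to 0.10 (adjusted p = 0.811, limma). The order of the 4 libraries was nearly that of *Tgfb1*, and without control 2 the estimate for *Tgfbr1* was -0.161, within a range from -0.449 with any 1 library left out. The ratio of *Tgfbr1* to *Tgfb1* stayed between 0.726 and 0.796.

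*Tgfbr2* (ENSMUSG00000032440, mm39 chr9:115913361-116004428, minus strand), the type II receptor that binds TGFβ first, was barely detected. It had 16 and 12 reads in the mutants and 26 and 15 in the controls, which is 0.110, 0.0749, 0.163 and 0.0994 FPKM. The groups overlapped, and the log2 fold change was -0.26 ± 0.53 with an interval from -1.61 to 1.09 (adjusted p = 0.929, limma). With these few reads and 2 libraries per group the interval is wide, and without control 1 the estimate was -0.059. *Tgfbr1* exceeded *Tgfbr2* by 13.6 and 20.8 times in the mutants and 10.5 and 21.3 times in the controls. *Bmpr2*, the type II receptor for BMP, was at 1.21 and 1.38 FPKM in the mutants and 1.33 and 1.54 FPKM in the controls, between 8.16 and 18.4 times the level of *Tgfbr2*.

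*Tgfbr3* (ENSMUSG00000029287, mm39 chr5:107254436-107437495, minus strand) rested on 28 and 26 reads in the mutants and 35 and 29 in the controls. Its FPKM of 0.240 and 0.203 in the mutants and 0.275 and 0.240 in the controls did not overlap only by a margin in the fourth decimal. The log2 fold change was -0.15 ± 0.34 (adjusted p = 0.935, limma).

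Of the BMP type I receptors, *Bmpr1a* (ENSMUSG00000021796, mm39 chr14:34132691-34225298, minus strand) was the most even of the 10 genes. It measured 4.58 and 4.95 FPKM in the mutants and 4.95 and 5.19 FPKM in the controls, with mutant 2 and control 1 almost equal. Its log2 fold change was -0.09 ± 0.11 with an interval from -0.37 to 0.19 (adjusted p = 0.870, limma). *Acvr1* (ENSMUSG00000026836, mm39 chr2:58278656-58457169, minus strand), which encodes the receptor also called ALK2, measured 0.709 and 0.793 FPKM in the mutants and 0.618 and 0.494 FPKM in the controls, from 61, 75, 58 and 44 reads. It was the 1 receptor of the 5 with both mutants above both controls, at a log2 fold change of 0.38 ± 0.21 (adjusted p = 0.811, limma), which was 0.244 without control 2 and 0.171 with a pseudocount of 1. *Bmpr1a* exceeded *Acvr1* by 6.46 and 6.23 times in the mutants and by 8.01 and 10.5 times in the controls, and no test was run on this ratio.

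The rest of the pathway was taken from 6 lists with 107 genes, of which 70 were tested. By limma 0 of the 70 passed an adjusted p of 0.05 (smallest 0.580), and by voom 0 of the 70. At an unadjusted p under 0.05 there were 6 (3 higher and 3 lower in mutants), or 8.57% against 6.31% of all genes. By voom there were 11, or 15.7% against 7.38% of all genes. Mutants had the higher estimate for 27 and the lower for 43, with a median log2 fold change of -0.118, against 8117 higher, 7880 lower and a median of 0.004 over all genes. The groups did not overlap for 28 genes (40.0%), of which 8 were higher and 20 lower in mutants, against the 36.6% of all genes, 18.2% higher and 18.3% lower. Estimates of low genes depend on the pseudocount, and raising it from 0.1 to 1 shrinks them.

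**Figure D4:**
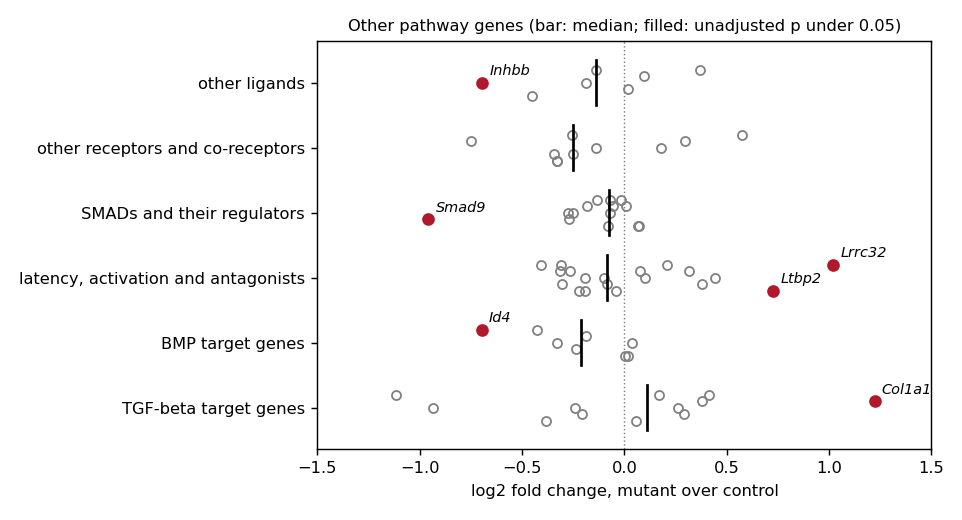
Log2 fold change, mutant over control, of the other tested genes of the pathway by list, with 1 circle per gene, vertical bars at the list medians and filled circles for an unadjusted p under 0.05. The named filled circles are 3 genes below 0 (*Inhbb*, *Smad9*, *Id4*) and 3 above it (*Lrrc32*, *Ltbp2*, *Col1a1*).

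Of 28 other ligands, 7 were tested and 11 had 0 reads in every library. The inhibin and activin subunits *Inha* (2.85 FPKM) and *Inhba* (2.08 FPKM) were the most abundant. *Inhbb*, the βB subunit of activin, was at 0.633 and 1.06 FPKM in the mutants and 1.41 and 1.36 FPKM in the controls. Both mutants were lower, with a log2 fold change of -0.69 ± 0.26 (adjusted p = 0.784, limma). Mutant 1 weighed heavily, since the estimate was -0.365 without it and -1.023 without mutant 2, and the unadjusted p stayed under 0.05 only without mutant 2. With a pseudocount of 1 the estimate was -0.383.

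Of 14 other receptors and co-receptors, 10 were tested and 0 had an unadjusted p under 0.05 by limma. By voom 1 did (10.0%, against 7.38% of all genes), the co-receptor gene *Rgma*. It had 10 and 10 reads in the mutants and 32 and 18 in the controls, a voom log2 fold change of -1.217 (adjusted p = 0.643). The activin receptors *Acvr1b* (4.49 FPKM) and *Acvr2b* (2.38 FPKM) were the most abundant, both lower in both mutants, with log2 fold changes of -0.25 ± 0.13 and -0.33 ± 0.19 (adjusted p = 0.811 each, limma). Of the 10, 7 had the lower estimate in mutants, and the median was -0.252.

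Among SMADs and their regulators, 14 of 15 were tested, and the estimate was lower in mutants for 11 and higher for 3. Over all 15997 genes it was lower for 7880. The changes were small, with a median of -0.076 and a median size regardless of sign of 0.076, against 0.185 over all genes. *Smad4*, the partner shared by both branches, was at 8.99 and 8.49 FPKM in the mutants and 8.73 and 8.94 FPKM in the controls. The repressor *Ski* averaged 5.71 FPKM. *Smad9*, a BMP-branch SMAD, had 15 and 18 reads in the mutants and 40 and 44 in the controls, or 0.157 and 0.171 against 0.383 and 0.445 FPKM. Every mutant library lay below every control library, and the log2 fold change was -0.96 ± 0.31 (adjusted p = 0.762, limma). It was between -1.045 and -0.873 with any 1 library left out, with an unadjusted p no longer under 0.05 without control 2, but -0.28 with a pseudocount of 1 and -1.301 by voom. The other BMP-branch SMADs were far more abundant. *Smad1* was at 3.79 and 3.13 FPKM in the mutants and 3.26 and 3.28 FPKM in the controls. *Smad5* was at 2.22 and 3.02 FPKM in the mutants and 3.29 and 3.02 FPKM in the controls.

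Genes for latency, activation and antagonists of the ligands made up 26, of which 19 were tested. The protease gene *Htra1* (49.3 FPKM) and the follistatin-like *Fstl1* (35.9 FPKM) were by far the most abundant, with log2 fold changes of -0.19 and -0.31 (adjusted p = 0.811 each, limma). *Lrrc32*, which encodes GARP, a cell-surface protein that holds latent TGFβ, had 38 and 57 reads in the mutants and 22 and 16 in the controls. Its log2 fold change was 1.02 ± 0.30 (adjusted p = 0.729, limma). It was between 0.83 and 1.209 with any 1 library left out, with an unadjusted p under 0.05 only without mutant 1, and it was 0.34 with a pseudocount of 1 and 1.313 by voom. *Ltbp2*, a protein of microfibrils related to the latent TGFβ binding proteins, was at 0.562 and 0.462 FPKM in the mutants and 0.302 and 0.239 FPKM in the controls, a log2 fold change of 0.73 ± 0.27 (adjusted p = 0.787, limma). The estimate was 0.251 with a pseudocount of 1, and the unadjusted p was not under 0.05 with any 1 library left out. Both genes had every mutant library above every control library. By voom 5 of the 19 (26.3%) had an unadjusted p under 0.05, against 7.38% of all genes. *Lrrc32* and *Ltbp2* were the higher ones in mutants. *Fstl1*, *Bmper* and *Twsg1* were the lower ones, with voom log2 fold changes of -0.31, -0.416 and -0.318. The BMP antagonists *Nog* and *Chrdl2* had 0 reads in every library.

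All 8 BMP target genes were tested, and 5 had the lower estimate in mutants. *Id2* (23.5 FPKM) and *Id1* (18.2 FPKM) were the most abundant. *Id1* was at 18.8 and 17.7 FPKM in the mutants and 18.7 and 17.7 FPKM in the controls, with a log2 fold change of 0.003 ± 0.092 (adjusted p = 0.998, limma). *Id4* was at 1.18 and 1.09 FPKM in the mutants and 2.02 and 1.79 FPKM in the controls, from 81, 82, 151 and 127 reads. Both mutants were well below both controls, with a log2 fold change of -0.70 ± 0.15 (adjusted p = 0.580, limma), the smallest adjusted p among the 70 pathway genes. It was between -0.78 and -0.616 with any 1 library left out, with an unadjusted p no longer under 0.05 without control 1, and -0.443 with a pseudocount of 1. *Id3* was at 13.3 and 12.9 FPKM in the mutants and 16.2 and 14.8 FPKM in the controls, a log2 fold change of -0.23 ± 0.10 (adjusted p = 0.805, limma). The ligand *Bmp4* had its higher estimate in mutants while *Smad9* and *Id4* had their lower estimates there, each below an unadjusted p of 0.05 and none past adjustment.

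**Figure D5:**
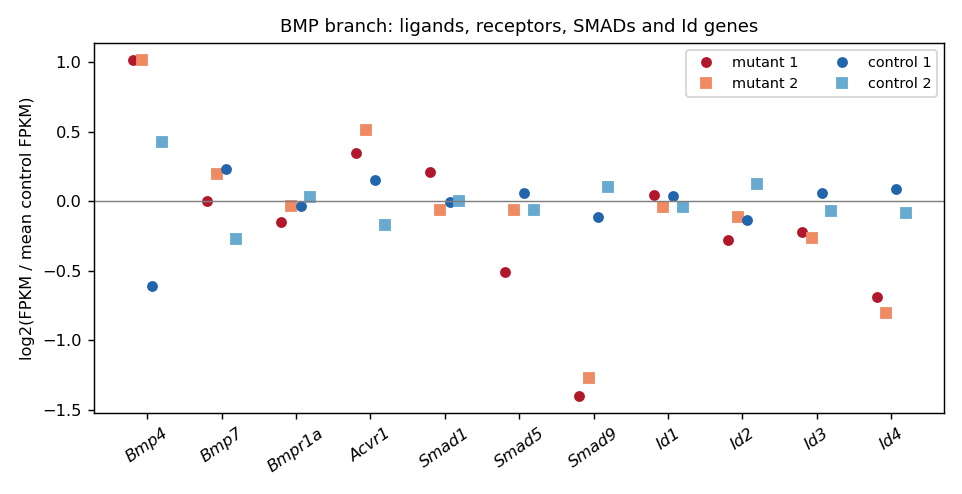
Log2 of FPKM over the mean control FPKM for ligands, receptors, SMADs and *Id* genes of the BMP branch, with 1 point per library. Both mutant points lie above both control points for *Bmp4* and *Acvr1* and below both for *Bmpr1a*, *Smad5*, *Smad9*, *Id3* and *Id4*, by a narrow margin for *Bmpr1a* and *Smad5*, while for *Id1* the 4 points nearly coincide.

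Of 16 TGFβ target genes, 12 were tested, 7 with the higher and 5 with the lower estimate in mutants and a median of 0.112. *Acta2*, which encodes smooth muscle actin, was the most abundant, at 12.6 and 11.0 FPKM in the mutants and 9.79 and 11.2 FPKM in the controls, a log2 fold change of 0.17 ± 0.12 (adjusted p = 0.811, limma). The matricellular gene *Ccn2* averaged 2.54 FPKM, with a log2 fold change of 0.26 ± 0.19 (adjusted p = 0.811, limma). *Col1a1*, which encodes the α1 chain of type I collagen, had 28 and 40 reads in the mutants and 6 and 9 in the controls. Both mutants were above both controls, and the log2 fold change was 1.22 ± 0.45 (adjusted p = 0.784, limma). With a pseudocount of 1 the estimate was 0.265, and by voom 2.148 (adjusted p = 0.256). With any 1 library left out the estimate was between 1.083 and 1.361. The unadjusted p by limma was 0.0769 with the replicate block, 0.0739 with the *Xist* covariate and 0.051 with equal FPKM sums. Without the variance trend it was 0.00405, and with a pseudocount of 1 it was 0.0376. *Col1a1* averaged 0.0607 FPKM in controls, below the mean of 0.1 FPKM needed for testing. At that control level it could be tested only with higher mutants (0.275 FPKM). Among 5 fibroblast markers, *Lum* had 0 reads in every library, and *Pi16* and *Dpt* had 0 reads in both mutants and control 1. *Ogn*, which held nearly all of the summed level of the list, was at 104 and 96.1 FPKM in the mutants and 85.0 and 102 FPKM in the controls, which overlap. *Col6a3*, which encodes a chain of type VI collagen, was lower in both mutants, at 1.71 and 1.79 against 2.22 and 2.14 FPKM. The part of fibroblasts in the *Col1a1* difference was not tested.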

How the data were processed

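RNA from pooled lenses was sequenced in 2 mutant and 2 control libraries. Per the study's methods, reads were aligned with HISAT2, counted per gene with featureCounts, and tested by the authors with DESeq2. The submitters' processing notes name the build mm39. The annotation release and strand setting are not given in the sources used here. The authors deposited FPKM for 56748 genes with gene lengths and positions, and 0 per-sample columns were unused.

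Groups and replicate numbers came from the sample labels. FPKM times gene length gave whole reads for 100% of values above 0 (tolerance 0.05). The FPKM denominators were between 0.944 and 1.05 times the recovered totals. Each library's median ratio to the geometric mean was 1.006, so no scaling was needed. The 15997 genes averaging 0.1 FPKM or more entered limma (lmFit, then eBayes using a mean-variance trend) as log2(FPKM + 0.1), a scale that understates changes of low genes, and p-values were adjusted by Benjamini-Hochberg. Fold changes are mutant over control. Voom with TMM factors on the recovered reads was an alternative, with others on pseudocount, filter, scaling, variance trend, replicate block, an *Xist* covariate and libraries left out. Exact Poisson 95% intervals cover counting error only. Sharing of 31-base words with transcripts of other genes in GRCm38 ranged from 0 to 4.13% of a gene's words (*Tgfbr3*), and for *Bmp4* was 0.808%.

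The 10 genes and the lists were chosen with earlier results of these data known. All 10 were described, and of each pathway list the 2 genes with the highest mean FPKM and every gene with an unadjusted p under 0.05 (at most 5). Other genes were named for context. Scripts were tested on simulated data. Software was R 4.3.3, limma 3.58.1, Python 3.11.15, numpy 2.4.6, pandas 2.3.3, scipy 1.17.1 and matplotlib 3.10.9.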

Additional observations from a re-analysis of the deposited data

How the results depend on the processing

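The main limit is 2 pooled libraries per group. Of 127 fold changes of the 10 genes under 13 alternatives, 123 kept their direction, and the smallest adjusted p of any was 0.425 (*Bmp4*, voom). The filter, variance trend, replicate block and *Xist* covariate settings left every estimate at its main value, so they could not change a direction. All reversals came with 1 library left out. Those that reversed were *Tgfb2* (0.06 without mutant 1, range -0.263 to 0.06), *Tgfb3* (0.268 without mutant 2 and 0.074 without control 1, range -0.288 to 0.268) and *Bmp7* (-0.126 without control 2, range -0.126 to 0.366). At an unadjusted p under 0.05 the count among the 10 genes was 1 as reported, 2 at a mean FPKM of at least 1 (7 tested), 2 with equal FPKM sums without crystallins, 2 by voom, 0 without the variance trend, and 0 to 1 with 1 library left out, being 0 without mutant 1 and without mutant 2, *Tgfb1* alone without control 1 and *Bmp4* alone without control 2. For the 70 pathway genes the count was 6 as reported, 3 at a mean FPKM of at least 1, 3 with equal FPKM sums, 11 by voom, and 2 to 8 with 1 library left out, the 2 being without control 1. With the replicate block it was 3. Deviations of same-numbered libraries did not correlate (r = -0.00508 over 15997 genes). With 2 libraries per group, this value cannot tell whether same-numbered libraries shared a batch, and the labels give only the number. The stricter filter tests fewer genes, and the fits with a library left out use fewer samples. The cause of the changes in these counts was not tested. Calls over all genes at an unadjusted p under 0.05 split 542 higher to 467 lower, but 414 to 604 with equal FPKM sums without crystallins and 545 to 635 by voom. Adjusted calls over all genes numbered 6, with 14 by voom and 0 with any 1 library left out. Planned edgeR and DESeq2 fits were not run. The deposited unit is FPKM, and of the methods for counts only voom was run on the recovered reads.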
